A study of Homo sapiens with 14 samples.

Results

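Genes of the BCL2 family hold a cell back from apoptosis or push it towards death. They were followed across RNA-seq libraries of IMR90 cells, which are human lung fibroblasts. The set was named gene by gene, without a cut-off on any measured value, though earlier results of these data were known by then. It holds 10 of the 54628 gene symbols in the count files: 4 pro-survival genes (BCL2, BCL2L1, BCL2L2 and MCL1), 2 pore-forming genes (BAX and BAK1) and 4 genes for BH3-only proteins (BBC3, PMAIP1, BCL2L11 and BMF). All 10 were found, each as a single row, and all 10 passed the filter on low counts in every comparison. The study compared cells made senescent with inflachromene (ICM), an inhibitor of the DNA-binding proteins HMGB1 and HMGB2, with growing cells and with ICM-treated cells in which a nuclear factor had been knocked down.

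Proteins of this family meet at the outer membrane of the mitochondrion. The pro-survival members bind and restrain BAX and BAK1, which otherwise assemble into pores that release cytochrome c and switch on caspases. BH3-only proteins act upstream, by occupying the groove of the pro-survival proteins or by activating BAX and BAK1 directly. Senescent fibroblasts are known for resisting apoptosis, and BCL2L1, BCL2L2 and BCL2 are targets of drugs that kill senescent cells selectively.

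There were 14 libraries, taken here in 7 groups of 2 replicates. All cells were grown at passage 5. WT cells had no treatment and no knockdown. The siHMGB2 cells were untreated cells with siRNA against HMGB2. ICM cells were wild type and received 10 µM ICM for up to 6 days. Those labelled siSRRM2, siBANF1 and siCTCF had the same ICM treatment with a knockdown of SRRM2, BANF1 or CTCF. The protocol names more than 1 isolate of the cells without saying which library came from which, and nothing says whether replicates are separate cultures. The p-values then measure only the spread between these libraries, which may be technical. ICM replicates 3 and 4 and both siCTCF libraries carry labels of another form, with cell line names that count on from IMR90, so ICM was divided into replicates 1-2 and 3-4 called the first and the second set below, and each knockdown was set against ICM libraries of the same set.

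Gene counts per library were 22336161 to 26779027 in the second set (ICM 3-4 and siCTCF), 33561766 to 41168932 in the untreated libraries, and 39435430 to 58257456 in the first ICM set with siSRRM2 and siBANF1. Small RNAs took 3.19% to 6.06% of the counts in ICM 1-2, siSRRM2 and siBANF1, and at most 0.0083% in the other libraries. All 10 fibroblast markers were detected in all 14 libraries. Their summed level was 24554 to 32478 CPM (counts scaled to a common library total) in WT and 2433 to 4907 CPM in ICM 3-4, while 9 markers of epithelial, endothelial and immune cells together reached at most 14.8 CPM. ICM 1 lay far from ICM 2, and siBANF1 1 far from siBANF1 2. The median chi-square of their counts over 12573 genes was 102.4 and 88.2, against 5.54 between ICM 2 and siBANF1 2 and 3.26 between the WT replicates. HMGB2 stood at 11.5% and 12.6% of the same-numbered WT library in siHMGB2, and CTCF at 75.4% and 25.0% of ICM 3 and ICM 4 in siCTCF 1 and siCTCF 2. BANF1 was at 125.4% and 112.2% of the same-numbered ICM library in the libraries labelled siBANF1, where SRRM2 was at 24.8% and 15.1%. In the libraries labelled siSRRM2, SRRM2 was at 32.0% and 68.0% and BANF1 at 253.2% and 101.9%. BANF1 thus goes against the siBANF1 label. The submitted files of these 4 libraries also carry in their names the other knockdown of the pair, against the titles used here. The names siSRRM2 and siBANF1 below refer to the labels only, and any direction drawn from them rests on those labels.

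The stretches just upstream of 5 members are shown to set their start regions side by side: 4 of the members called in ICM 3-4 against WT, and BAX, which was called between the ICM sets and whose stretch holds an uncommon run of motifs. They come from RefSeq on GRCh38.p14, where 8 of the 10 members had an entry, and each is the 200 bases before the start, written 5′ to 3′ on the gene's own strand. BAK1 is at chr6:33580277-33580476 (minus strand), PMAIP1 at chr18:59899796-59899995 (plus), BAX at chr19:48954675-48954874 (plus), BCL2L1 at chr20:31723964-31724163 (minus, the outer of its starts) and BMF at chr15:40108880-40109079 (minus, the outer of its starts). Capitals mark, on either strand, the GC box GGGCGG, the E-box CACGTG, the cAMP response element core TGACG and CCAAT.
BAK1: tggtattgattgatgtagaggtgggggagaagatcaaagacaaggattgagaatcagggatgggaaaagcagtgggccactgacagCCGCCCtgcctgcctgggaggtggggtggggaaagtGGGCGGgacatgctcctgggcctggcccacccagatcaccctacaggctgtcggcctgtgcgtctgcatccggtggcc
PMAIP1: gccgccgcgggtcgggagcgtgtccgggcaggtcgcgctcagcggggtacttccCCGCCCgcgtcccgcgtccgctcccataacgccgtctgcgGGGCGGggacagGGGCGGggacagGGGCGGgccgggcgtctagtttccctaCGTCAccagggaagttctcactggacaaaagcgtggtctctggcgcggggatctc
BAX: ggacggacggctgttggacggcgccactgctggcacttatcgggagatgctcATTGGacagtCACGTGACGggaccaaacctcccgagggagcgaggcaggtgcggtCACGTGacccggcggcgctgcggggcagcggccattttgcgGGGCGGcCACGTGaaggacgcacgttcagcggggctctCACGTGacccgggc
BCL2L1: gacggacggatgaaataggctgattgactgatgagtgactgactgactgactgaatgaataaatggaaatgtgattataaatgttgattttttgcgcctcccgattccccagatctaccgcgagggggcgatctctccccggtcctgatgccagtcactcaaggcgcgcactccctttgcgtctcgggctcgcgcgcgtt
BMF: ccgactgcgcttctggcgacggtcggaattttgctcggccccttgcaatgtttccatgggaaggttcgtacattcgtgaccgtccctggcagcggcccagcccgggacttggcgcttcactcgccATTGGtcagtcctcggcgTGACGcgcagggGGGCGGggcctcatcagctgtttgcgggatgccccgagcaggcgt

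The BAX stretch holds 4 E-boxes, the first of them sharing bases with a TGACG. Of 35116 promoters in the table, 5.5% have an E-box in this window and 5 promoters (0.0142%) have 4 or more. PMAIP1 holds 4 GC boxes, a count that 6.03% of promoters reach, and 1 TGACG, which 18.4% have. BAK1 has 2 GC boxes and BMF 1, against 40.1% of promoters with any, and BMF and BAX each have 1 CCAAT, which 28.0% have. None of these letters occur in the BCL2L1 window. BBC3, also called in ICM 3-4 against WT, is not shown, and its window has 1 CCAAT and none of the other marked motifs. BAX was shown partly because of its motifs, so their rarity is a description and no test. A match is a run of letters and not a measured binding site.

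Per kilobase of exon, MCL1 was the most abundant member and BCL2 the least abundant in all 7 groups. In WT the mean level was 136.2 CPM per kb for MCL1, 58.6 for BAX, 24.4 for PMAIP1, 23.8 for BCL2L1, 15.3 for BCL2L2, 13.4 for BMF, 8.55 for BAK1, 4.56 for BBC3, 1.61 for BCL2L11 and 0.114 for BCL2. The ranges of the 2 replicates overlapped only for PMAIP1 and BCL2L1 in that order. BMF held the sixth place in WT and the eighth in ICM 3-4, at 2.49 CPM per kb, while BAK1 moved from the seventh to the fifth, at 38.7 CPM per kb. In ICM 3-4 neighbours overlapped for BAX (87.6 CPM per kb), PMAIP1 (75.1) and BCL2L1 (72.1), and for BMF and BCL2L11 (2.24). These orders compare messages of different genes by length and say nothing of protein. Several members have spliced forms of opposite function (BCL2L1, MCL1), which counts per gene do not separate.

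**Figure D1:**
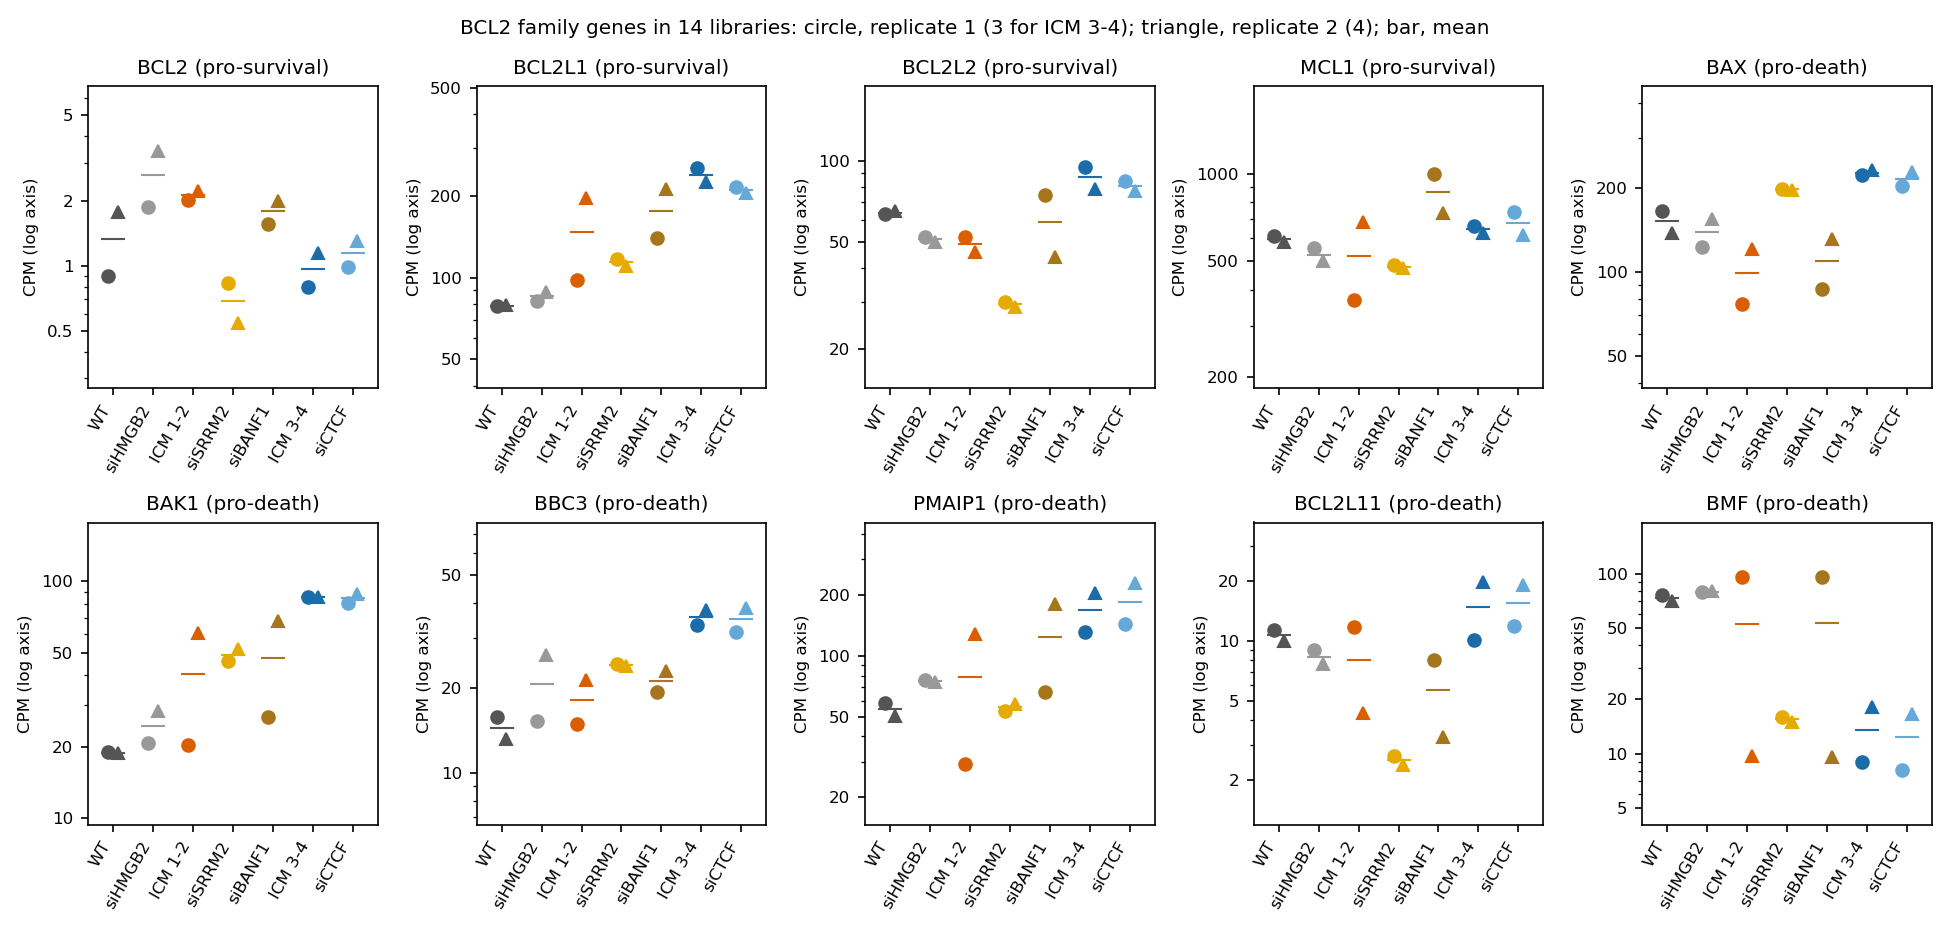
Level of each of the 10 genes (CPM, log axis) in the 14 libraries, grouped on the horizontal axis; circles and triangles are the replicates and bars their means. BAK1 and BCL2L1 have their highest means in ICM 3-4 and siCTCF, and BMF splits the ICM 1-2 and siBANF1 replicates into a high (95.6 and 96.1 CPM) and a low one (9.67 and 9.61 CPM).

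Among the pro-survival genes, BCL2L1 was called in ICM 3-4 against WT. It encodes BCL-XL, a main partner of BAX and BAK1. Its level was 78.4 and 79.4 CPM in the 2 WT libraries and 82.3 and 88.8 CPM in siHMGB2. ICM 1 and 2 gave 97.8 and 196.2 CPM, the libraries labelled siSRRM2 gave 117.3 and 110.5 CPM, and those labelled siBANF1 139.8 and 211.0 CPM. Every ICM-treated library lay above both WT libraries. In ICM 3 and 4 the level was 253.2 and 224.6 CPM, and in siCTCF 1 and 2 it was 215.5 and 203.9 CPM, so that the highest values all belonged to the second set or to replicate 2 of ICM and siBANF1. The antisense gene ABALON shares 43.0% of the exon bases of BCL2L1 in GENCODE v29. It had 0.042 to 3.53 CPM, and because whether counting used strand is not given in the sources used here, reads of the pair cannot be told apart.

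MCL1, a short-lived pro-survival protein that restrains BAK1 and is the chief partner of PMAIP1, had the highest counts of the family. Its level was 608.6 and 582.4 CPM in WT, 554.5 and 499.8 CPM in siHMGB2, 660.8 and 626.2 CPM in ICM 3 and 4, and 739.6 and 618.0 CPM in siCTCF. In ICM 1 and 2 it was 367.1 and 679.6 CPM, in siSRRM2 485.6 and 474.0 CPM, and in siBANF1 999.1 and 732.6 CPM. ICM 1 was the lowest and siBANF1 1 the highest library of all 14.

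BCL2L2 encodes BCL-W. It had 63.3 and 65.0 CPM in WT, 52.2 and 50.1 CPM in siHMGB2, and 52.1 and 45.7 CPM in ICM 1 and 2. The siSRRM2 pair was lowest at 30.0 and 28.6 CPM, siBANF1 had 74.9 and 43.8 CPM, ICM 3 and 4 had 94.7 and 78.7 CPM, and siCTCF 83.9 and 77.2 CPM. All 4 libraries of the second set lay above the other 10. A readthrough gene, BCL2L2-PABPN1, shares 19.4% of the exon bases and had at most 0.485 CPM. BCL2 itself, the founding member of the family, rested on 19 to 141 counts a library, or 0.541 to 3.42 CPM with a highest value in siHMGB2 2, and its 2 WT libraries already differed 1.99-fold.

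Both pore-forming genes were higher in the second set than in WT. BAK1, which sits in the mitochondrial membrane of healthy cells, had 19.1 and 18.7 CPM in WT and 20.7 and 28.3 CPM in siHMGB2. It had 20.4 and 60.6 CPM in ICM 1 and 2, 46.1 and 51.6 CPM in siSRRM2, and 26.7 and 68.2 CPM in siBANF1. In ICM 3 and 4 it had 85.8 and 85.5 CPM, and in siCTCF 80.8 and 88.7 CPM. ICM 1 stood within 1.08-fold of the WT mean, whereas ICM 3 and 4 stood 4.54-fold and 4.52-fold above it. BAX, which moves from the cytosol to mitochondria on activation, had 165.6 and 137.4 CPM in WT and 122.5 and 155.2 CPM in siHMGB2. It had 77.0 and 121.0 CPM in ICM 1 and 2 and 86.8 and 131.7 CPM in siBANF1, all 4 below both WT libraries. The siSRRM2 libraries had 198.5 and 196.6 CPM, ICM 3 and 4 had 222.4 and 230.8 CPM, and siCTCF had 202.9 and 228.5 CPM, all 6 above both WT libraries.

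The BH3-only genes did not move as a group. BMF, whose protein binds a dynein light chain and several pro-survival members, had 76.1 and 70.4 CPM in WT and 79.3 and 79.6 CPM in siHMGB2. ICM 1 and siBANF1 1 were higher still, at 95.6 and 96.1 CPM, while ICM 2 and siBANF1 2 had 9.67 and 9.61 CPM. The other ICM-treated libraries were low as well, with 15.9 and 15.1 CPM in siSRRM2, 8.95 and 18.2 CPM in ICM 3 and 4, and 8.06 and 16.7 CPM in siCTCF. BMF therefore fell into a high and a low range that did not overlap, with 2 of the 10 ICM-treated libraries in the high one.

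PMAIP1 encodes NOXA, which binds MCL1 and favours its degradation. It had 58.4 and 50.6 CPM in WT, 76.1 and 74.5 CPM in siHMGB2, and 29.3 and 128.6 CPM in ICM 1 and 2. The siSRRM2 libraries, with 53.6 and 57.7 CPM, lay within the WT range. In siBANF1 it had 66.6 and 181.4 CPM, in ICM 3 and 4 130.8 and 204.8 CPM, and in siCTCF 143.0 and 228.1 CPM. BBC3 encodes PUMA, which binds all pro-survival members. Its level was 15.8 and 13.2 CPM in WT, 15.3 and 26.2 CPM in siHMGB2, 15.0 and 21.4 CPM in ICM 1 and 2, 24.3 and 23.9 CPM in siSRRM2, and 19.4 and 23.0 CPM in siBANF1. The second set was highest, with 33.3 and 37.8 CPM in ICM 3 and 4 and 31.7 and 38.4 CPM in siCTCF.

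BCL2L11 encodes BIM, a potent activator that binds every pro-survival member. It had 11.4 and 9.99 CPM in WT, 9.05 and 7.63 CPM in siHMGB2, 11.8 and 4.33 CPM in ICM 1 and 2, and 8.04 and 3.30 CPM in siBANF1. The siSRRM2 libraries were the lowest, at 2.63 and 2.38 CPM. In ICM 3 and 4 it had 10.1 and 19.8 CPM and in siCTCF 11.9 and 19.3 CPM, so replicate 1 of siCTCF and ICM 3 lay near WT and their partners above it. Its exons share 10.9% of their bases with the antisense MIR4435-2HG, which at 57.2 to 140.4 CPM exceeded BCL2L11 itself, so these values are uncertain without the strand setting. Likewise 8.5% of the exon bases of BMF lie opposite BMF-AS1.

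Of the comparisons with growing cells, ICM 3-4 against WT called 5 of the 10 members, where 56.6% of all 16719 genes tested were called, so the members' share was near that of all genes. A call is an adjusted p under 0.05 by the quasi-likelihood test of edgeR, adjusted after Benjamini and Hochberg over all genes tested. BAK1 rose most among the pro-death genes, by a log2 fold change of 1.98 (SE 0.17, adjusted p = 6.53e-05 in edgeR), or 3.95-fold. PMAIP1 rose by 1.41 (SE 0.24, adjusted p = 0.00166) and BBC3 by 1.09 (SE 0.26, adjusted p = 0.00732). BMF moved the other way and fell by 2.64 (SE 0.36, adjusted p = 0.000511), or 6.23-fold. The pro-survival BCL2L1 rose as well, by 1.40 (SE 0.15, adjusted p = 0.000144), or 2.64-fold. In each of these 5 the ICM 3-4 libraries lay outside the WT range on the same side.

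For the other 5 members the same comparison gave log2 fold changes of 0.38 for BAX (SE 0.17, adjusted p = 0.0820), 0.24 for BCL2L2, 0.27 for BCL2L11, -0.09 for MCL1 and -0.67 for BCL2. In CPM 8 members did not overlap between the groups, all but BMF being higher in ICM 3-4, against 80.4% of all genes in either direction. The median log2 fold change was 0.33 over the 10 members, 0.08 over the 4 pro-survival and 0.74 over the 6 pro-death genes, and 0.02 over all genes. Scaling by total counts moved the median of all genes from 0.02 to 0.22. Under it MCL1 was at 0.11, and BAX (0.58, adjusted p = 0.0163) and BCL2L2 (0.43, adjusted p = 0.0275) passed. PMAIP1 and BMF did not pass when all 14 libraries shared a spread (adjusted p = 0.0858 and 0.0801), nor did BBC3 without WT 2 (adjusted p = 0.0631).

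Other changes ran beside these. Of the 10 fibroblast markers, 9 fell in ICM 3-4, with a median log2 fold change of -3.39, and both epithelial EPCAM and endothelial VWF, each under 2 CPM, fell too. In bulk RNA, fewer cells of a type and less RNA per cell cannot be told apart, and the part of these markers in the members' changes was not tested. No WT library belongs to the second set, so the ICM treatment and the set cannot be told apart in this comparison.

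**Figure D2:**
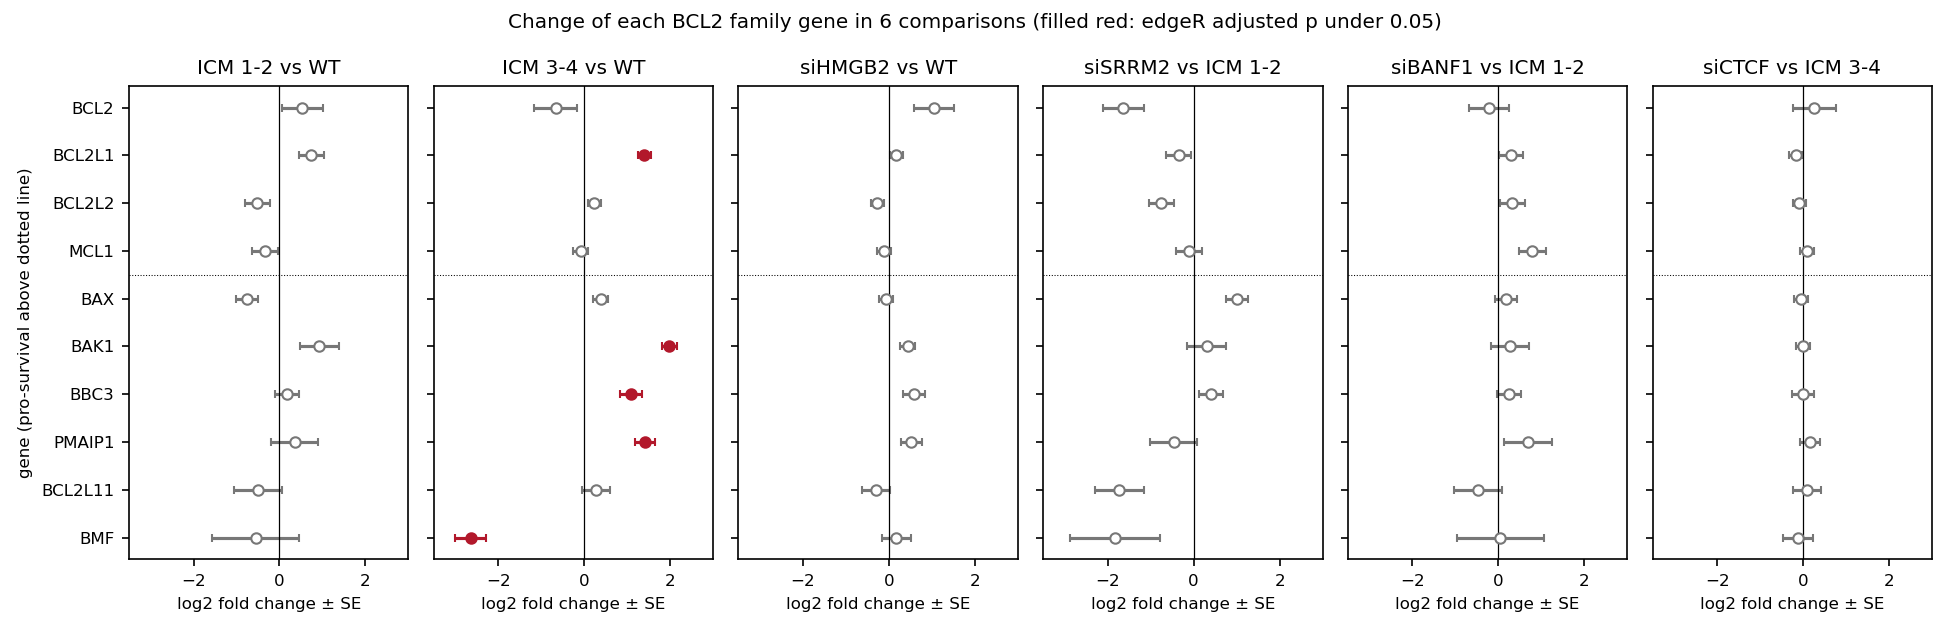
Log2 fold change ± SE (horizontal axis) of each gene in 6 comparisons, from the edgeR fits; filled red points passed an adjusted p of 0.05. Red points appear in ICM 3-4 against WT, with BAK1 at 1.98 and BMF at -2.64, and the widest bars belong to BMF in the panels that use ICM 1-2.

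In ICM 1-2 against WT, no member was called, where 13.5% of 19126 genes were. At an unadjusted p under 0.05, 2 members passed, BAX and BCL2L1, where 5852 of 19126 genes did. DESeq2 called these same 2, where it called 4010 of 19126 genes. There BAX was at -0.71 (adjusted p = 0.0256 in DESeq2) and BCL2L1 at 0.78 (adjusted p = 0.0398). In edgeR BCL2L1 had a log2 fold change of 0.74 (SE 0.29, adjusted p = 0.110) and BAX -0.76 (SE 0.26, adjusted p = 0.0718). BAK1 had 0.93 with an SE of 0.45, and BMF -0.55 with an SE of 1.01, beside a 9.88-fold gap between its ICM replicates. Between the groups 5 members did not overlap in CPM, against 57.3% of all genes. Leaving out ICM 1, which leaves ICM 2 alone in its group, put BAK1 at 1.48, BCL2L1 at 1.11 and BMF at -3.12. Leaving out ICM 2 put BMF at 0.30 and PMAIP1 at -0.98. The ICM 1-2 libraries also held the small RNA share given above, which WT did not, and its part was not tested.

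How far the pair of ICM sets differed was tested directly. ICM 3-4 against ICM 1-2 called 1 member, BAX, where 19.5% of genes were called. BAX was 2.15-fold higher in ICM 3-4 (log2 fold change 1.10, SE 0.26, adjusted p = 0.0158 in edgeR). It no longer passed when these 4 libraries were fitted alone (adjusted p = 0.167) or without ICM 1, ICM 3 or ICM 4 (adjusted p = 0.105, 0.0856 and 0.0614). Without ICM 2, which leaves ICM 1 alone in its group, PMAIP1 stood at 2.35 and BAK1 at 1.92. Between the sets 7 members did not overlap in CPM, against 56% of all genes. BBC3 stood at 0.87 (adjusted p = 0.0517) and passed with RLE scaling, total counts, a mean of at least 1 CPM and DESeq2 (adjusted p = 0.0488, 0.0477, 0.0347 and 0.0170). BMF stood at -2.14 with an SE of 1.06 (adjusted p = 0.170). It passed in edgeR without the filter on low counts (adjusted p = 4.035e-07), as BAK1 and PMAIP1 did. That run called 4930 of 33733 genes. Without ICM 1, which leaves ICM 2 alone in its group, BMF turned to 0.43. Its level differed 9.88-fold between ICM 1 and ICM 2.

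The replicates of ICM 1-2 and siBANF1 parted 9 of the 10 members in the same direction. This was not particular to the members, since the replicate differences of these groups correlated at 0.793 over 19126 genes. The share of all genes that parted alike was not counted. Replicate folds in these groups had medians of 1.93 and 1.62 over the 10 members and reached 9.88 and 10.0, both in BMF, against at most 2.07 in the other 5 groups. PMAIP1 differed 4.39-fold between ICM 1 and 2 and 2.72-fold between siBANF1 1 and 2, BAK1 2.97-fold and 2.56-fold, and BCL2L11 2.73-fold and 2.44-fold. In both groups replicate 2 had more BAK1, BCL2L1, BCL2, BAX, BBC3 and PMAIP1, and less BMF, BCL2L11 and BCL2L2. MCL1 went opposite ways, higher in ICM 2 than in ICM 1 and lower in siBANF1 2 than in siBANF1 1. Fibroblast markers ranged widely in them too, from 4972 to 19924 CPM in ICM 1-2 and from 5477 to 15626 CPM in siBANF1, and their part was not tested.

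Knockdown of HMGB2 without ICM called no member, where 0.293% of 16719 genes were called (49 genes). DESeq2 called no member either, where it called 556 of 16719 genes. At an unadjusted p under 0.05 in edgeR, 1 member passed, BAK1, where 2061 of 16719 genes did. BAK1 had a log2 fold change of 0.43 (SE 0.17, adjusted p = 0.348 in edgeR), BBC3 0.58 (SE 0.26, adjusted p = 0.415), PMAIP1 0.52 (SE 0.24, adjusted p = 0.437) and BCL2 1.05 (SE 0.46, adjusted p = 0.413). PMAIP1 passed when only these 4 libraries were fitted (0.53, adjusted p = 0.0161, with 10.9% of genes called). The CPM of 8 members did not overlap, against 52.4% of all genes. MCL1 was at -0.12 and BMF at 0.17, each less than its SE away from 0.

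None of the 3 comparisons of a knockdown with its ICM libraries called a member. In siSRRM2 against ICM 1-2, 0.178% of genes were called. BAX had a log2 fold change of 1.01 (SE 0.26, adjusted p = 0.169 in edgeR), BCL2 -1.63 (SE 0.48, adjusted p = 0.231), BCL2L11 -1.73 (SE 0.58, adjusted p = 0.280) and BCL2L2 -0.75 (SE 0.29, adjusted p = 0.363), and these 4 had an unadjusted p under 0.05. That unadjusted threshold was passed by 2168 of 19126 genes. DESeq2 called BAX (0.97, adjusted p = 0.00543) and BCL2 (-1.69, adjusted p = 0.0243), where it called 727 of 19126 genes. In edgeR without the filter on low counts BCL2L11 and BMF were called, where 814 of 33733 genes were. Both siSRRM2 libraries lay outside the ICM 1-2 range in 5 members, against 41.5% of all genes.

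The siBANF1 comparison with ICM 1-2 called 0% of genes, with 591 genes at an unadjusted p under 0.05, MCL1 the only member among them, and 24 genes but no member by DESeq2. MCL1 had the largest difference, 0.79 (SE 0.31, adjusted p = 1.0), with both siBANF1 libraries above both ICM libraries. Over the 10 members 2 did not overlap, against 14.5% of all genes. Taken by replicate number, MCL1 was at 999.1 against 367.1 CPM for replicate 1 and at 732.6 against 679.6 CPM for replicate 2. Without both replicate 2 libraries MCL1 stood at 1.47. That run was chosen after seeing the data and leaves a single library in each group.

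For siCTCF against ICM 3-4 the share called was 0% as well, with 135 genes and no member at an unadjusted p under 0.05, and no gene by DESeq2. The 10 log2 fold changes lay between -0.17 for BCL2L1 and 0.26 for BCL2. BCL2L1 was the only member without overlap, against 16.6% of genes. CTCF in siCTCF 1 was still at 75.4% of ICM 3, which limits what this comparison can show. Compared with each other, siSRRM2 and siBANF1 called no member in edgeR, where 0.272% of genes were called. At an unadjusted p under 0.05, 5 members passed, where 2955 of 19126 genes did. DESeq2 called 4 members (BCL2, BCL2L2, MCL1 and BAX), where it called 1333 of 19126 genes. Against siBANF1, siSRRM2 had less MCL1 (-0.90, SE 0.31, adjusted p = 0.202) and BCL2L2 (-1.08, SE 0.30, adjusted p = 0.130) and more BAX (0.83, SE 0.26, adjusted p = 0.168), none past the threshold. In this comparison 8 members did not overlap, against 44.1% of genes.

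The summed level per kb of the 4 pro-survival genes, set over that of the 6 pro-death genes, gave a message ratio for each library, described here without a test. It was 1.49 and 1.68 in WT, 1.47 and 1.18 in siHMGB2, and 1.66 and 1.60 in ICM 1 and 2. The libraries labelled siSRRM2 gave 1.16 and 1.10, those labelled siBANF1 2.88 and 1.40. In ICM 3 and 4 it was 1.27 and 0.967, and in siCTCF 1.32 and 0.891. All 4 libraries of the second set lay below both WT libraries, as did the siHMGB2 and siSRRM2 libraries and siBANF1 2. Per kb of exon, ICM 4 and siCTCF 2 had more pro-death than pro-survival message, an order that depends on the length used. With counts not divided by length their log2 ratios were 0.64 and 0.54. With the longest transcript as the length they were -0.36 and -0.46. Negative under that length too were siHMGB2 2 (-0.17), siSRRM2 1 (-0.26), siSRRM2 2 (-0.33) and ICM 3 (-0.0009). On the log2 scale the mean of ICM 3-4 was 0.51 below that of WT, where the pooled SD between replicates was 0.22. Both sums were larger in ICM 3 and 4 than in WT: pro-survival genes came to 250.3 and 229.9 CPM per kb against 178.1 and 172.9, and pro-death genes to 196.9 and 237.7 against 119.4 and 102.8.

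A few genes carried these sums. MCL1 made up 77.1% to 78.2% of the pro-survival level in WT and 60.4% to 62.3% in ICM 3-4, where BCL2L1 rose from 13.3% to 13.9% of it to 29.5% to 30.5%. On the pro-death side BAX was 51.7% to 53.6% of the sum in WT and 37.5% to 43.7% in ICM 3-4. BMF went from 11.7% to 12.6% down to 0.83% to 1.41%, and BAK1 from 7.22% to 8.24% up to 16.3% to 19.7%. Without MCL1 the log2 difference of the ratio turned to 0.27, with BCL2L1 then leading the pro-survival sum. PMAIP1 took 47.1% of the pro-death level in siBANF1 2, the highest share it had in any library.

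**Figure D3:**
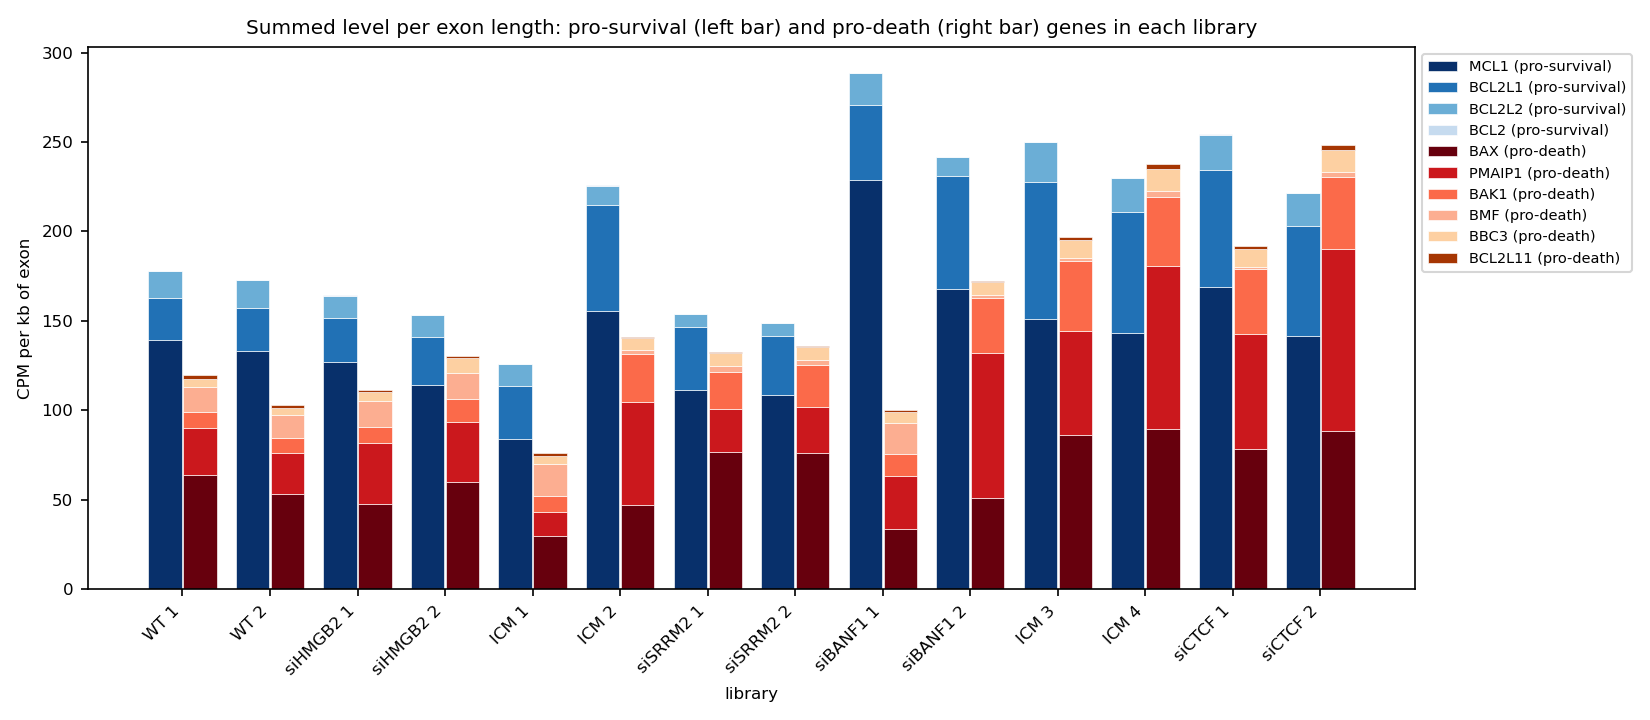
Summed level per kilobase of exon (CPM per kb, vertical axis from 0) in each of the 14 libraries, with pro-survival genes stacked in the left bar in blue and pro-death genes in the right bar in red. The left bar is the taller except in ICM 4 and siCTCF 2, where the pro-death sum reaches 237.7 and 248.5 CPM per kb.

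Across the 14 libraries some members tracked each other. The correlation of log2(CPM + 1) was 0.92 between BAK1 and BCL2L1, 0.90 between BAK1 and BBC3, 0.85 between BCL2L2 and BCL2L11, and -0.92 between BAK1 and BMF. MCL1 correlated at most at 0.54 with any other member, PMAIP1. These are descriptions without a p, since libraries of one group, set and preparation share much, and the low BMF libraries form a cluster of their own. Among 9833 protein-coding genes whose mean reached 5 CPM, the patterns most like that of BAK1 were SMYD5 (r = 0.991) and AEN (0.989). For BCL2L1 they were SHPK (0.986) and PDPK1 (0.982), for BMF ERAP1 (0.978) and YPEL1 (0.974), and for BAX SCAND1 (0.973) and APOBEC3C (0.972). BCL2L2 was nearest to UBQLN2 (0.968) and OAF (0.965), PMAIP1 to ARL6IP1 (0.962) and SSR1 (0.957), BBC3 to NAGPA (0.962) and ECSIT (0.957), and BCL2L11 to ZKSCAN8 (0.958) and YLPM1 (0.947). MCL1 and BCL2 had looser neighbours, WWC1 (0.887) and CAD (0.853) for MCL1, and SNX30 (0.860) and PPP2R3A (0.839) for BCL2.

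The rest of the pathway was read from 7 lists, of which 44 genes are reported here. In ICM 3-4 against WT, 13 rose and 10 fell of the 39 tested, 59%, near the 56.6% of all genes. In the other BCL2 family list, 2 rose, 3 fell and 3 were not called of 8 tested. BCL2A1, a pro-survival member induced by NF-kB, had 594 and 264 counts in WT and 0 counts in both ICM 3 and ICM 4, at least 201-fold lower with 3 counts over the group as the floor. BID, a BH3-only protein cut by caspase-8, fell by 0.90 (SE 0.32, adjusted p = 0.0405 in edgeR), and BAD, another BH3-only protein, rose by 0.56 (SE 0.20, adjusted p = 0.0409). BIK, HRK and BCL2L14 had at most 8 counts in a library and were not tested.

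Downstream of the pores, the apoptosome and caspase list had 1 gene that rose, 1 that fell and 2 not called of the 4 reported, led by the initiator CASP9, which rose by 1.27 (SE 0.20, adjusted p = 0.00112 in edgeR). The inhibitors of apoptosis and their antagonists had 3 that rose and 3 that fell of 7. BIRC5, an inhibitor expressed in dividing cells, fell by 6.25 (SE 0.40, adjusted p = 2.60e-05), from 16.9 and 18.4 CPM in WT to at most 0.41 CPM in every ICM-treated library. The death receptor list had 2 genes that rose and 2 that fell of 7 tested, with the receptor FAS at 1.41 (SE 0.27, adjusted p = 0.00260). MTCH2, an outer membrane receptor for BID, rose by 1.50 (SE 0.31, adjusted p = 0.00397), in a list where 1 of 4 rose and 1 fell.

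The last lists held genes that set MCL1 stability or act upstream of BH3-only transcription. Of the 3 MCL1 turnover genes, 1 rose, the ubiquitin ligase HUWE1 (0.60, SE 0.16, adjusted p = 0.0115 in edgeR). Of 6 upstream transcription genes reported, 3 rose and none fell. DDIT3, the stress factor CHOP, rose by 3.52 (SE 0.16, adjusted p = 1.19e-05), from 28.6 and 25.2 CPM in WT to 320.7 and 388.6 CPM. It had 27.8 and 247.9 CPM in ICM 1 and 2 and 43.4 and 234.6 CPM in siBANF1 1 and 2, again with replicate 1 lower. MDM2, a ubiquitin ligase, rose by 1.54 (SE 0.22, adjusted p = 0.000674).

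In ICM 1-2 against WT, 4 of the 41 reported pathway genes tested rose and 2 fell, 14.6% against 13.5% of all genes. All 6 calls come from a fit that shares its spread with other groups. With only ICM 1-2 and WT fitted by group, 0 of 16617 genes passed in edgeR, with 3664 at an unadjusted p under 0.05. Adding the replicate number to that fit as a block, 1183 of 16617 genes passed. Whether these 6 were among them is not given here. MDM2 rose by 2.26 (SE 0.43, adjusted p = 0.00835 in edgeR), from 134.5 and 149.4 CPM in WT to 429.8 and 1097 CPM. BIRC5 fell by 5.63 (SE 0.47, adjusted p = 0.000115) and BCL2A1 fell by 4.12 (SE 1.17, adjusted p = 0.0461), while BID (-0.37) and BAD (-0.08) were not called. The MCL1 turnover list had 2 that rose of 3, FBXW7 by 1.31 and the deubiquitinase USP9X by 1.13. In ICM 3-4 against ICM 1-2, 2 rose and 6 fell of 41, or 19.5%, the same share as of all genes. CASP9 was higher there by 1.20 and TNFRSF1A, a death receptor, by 1.34. BIRC3 and FBXW7 were lower, by log2 fold changes of -2.38 and -1.09, and BCL2A1 had 54 and 24 counts in ICM 1 and 2.

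Knockdown of HMGB2 in growing cells left the pathway genes named here short of a call. CYCS, which encodes cytochrome c, was at -0.68 (SE 0.16, adjusted p = 0.127 in edgeR) and BOK, a relative of BAX and BAK1, at 0.83 (SE 0.19, adjusted p = 0.131). BCL2A1 was at -2.24 (SE 0.65, adjusted p = 0.223) and MDM2 at -0.19. In the 3 knockdowns on the ICM background none of the reported pathway genes was called in edgeR, nor between siSRRM2 and siBANF1.

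**Figure D4:**
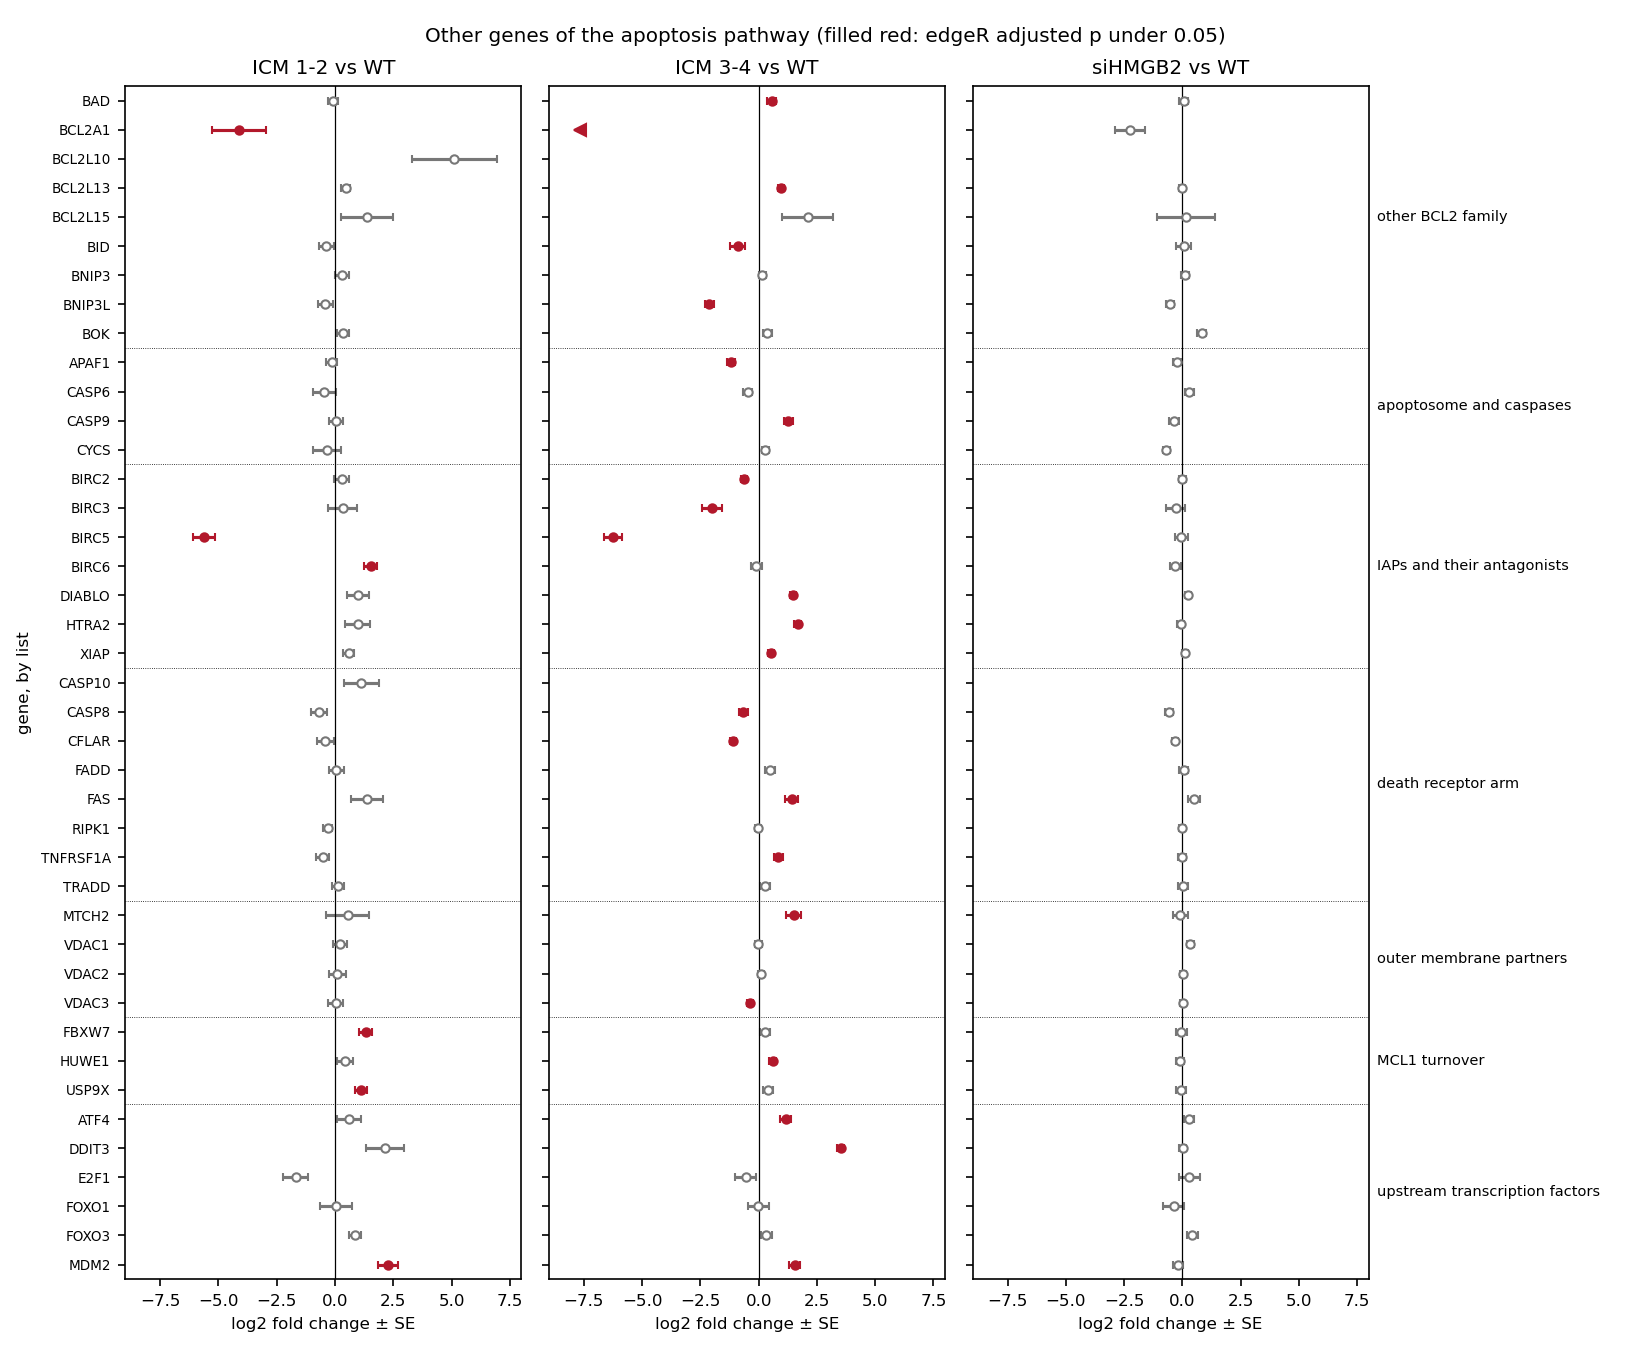
Log2 fold change ± SE (horizontal axis) of the pathway genes tested, by list, in 3 comparisons with WT; filled red points passed an adjusted p of 0.05 and the triangle marks BCL2A1 at its bound of -7.65. The middle panel has 23 of its 39 genes past the threshold, and the right one shows open points with BCL2A1 lowest, at -2.24.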

How the data were processed

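The deposited files give whole-number read counts per gene symbol, 1 file per library, made by the authors without pooling replicates. STAR 2.7.3a, HTSeq 0.12.4, DESeq2 1.36.0 and hg38 are named per the submitters' processing notes, without roles; the annotation release and the strand setting are not given in the sources used here. Lines for reads given to no gene (12.75% to 41.78% of reads) were left out. Of the rest, CPM was computed on unadjusted totals, and CPM per kb on the union of exons in GENCODE v29. Counts were scaled by TMM, and low genes removed by filterByExpr; edgeR 4.0.16 (R 4.3.3) gave the tests, by quasi-likelihood. ICM 1-2, siSRRM2 and siBANF1 were tested in a fit of all 14 libraries (19126 genes). ICM 3-4 against WT, siHMGB2 and siCTCF were tested in a fit of 8 libraries that leaves out ICM 1-2 and siBANF1, whose replicates lie far apart, and siSRRM2 (16719 genes). SE is the absolute log2 fold change over the square root of F. The script was tested on simulated counts. DESeq2 1.42.0, other scalings and filters, other sets of libraries and leaving out each library were alternatives.

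The members and lists were chosen with earlier results of these data known. Named were all members, the targeted genes, the called gene with the largest change in each list and comparison, MDM2, BCL2A1, BID and BAD, and the 2 genes most like each member; other pathway genes were named after their values were seen. A few genes of the pathway lists are not reported here and are left out of the list counts. Among the members, counting error is small at these depths except for BCL2. It is larger for pathway genes with few counts, such as BCL2A1 and BIRC5 in the ICM libraries and MTCH2 in WT.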

Additional observations from a re-analysis of the deposited data

Results flagged for a closer look

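Among the 4 ICM libraries, MCL1 in ICM 1 was 367.08 CPM, far enough below the other 3 that the gap, as a share of the whole range, just passed Dixon's 95% limit for 4 samples. BMF in ICM 1 was 95.57 CPM, with a gap of 0.893 of the range above the other 3. Of 15 values checked this way, 2 lay beyond the limit. The limit assumes draws from a single population, while these 4 libraries come from 2 sets and the values correlate. How many chance would place beyond it is therefore not known. BAX differed between the ICM sets, by a log2 fold change of 1.1 in ICM 3-4 against ICM 1-2, a difference tested in the edgeR fit (adjusted p = 0.0158).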

How the results depend on the processing

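The 5 calls in ICM 3-4 against WT kept direction under every alternative run. Genes called numbered 2582 in ICM 1-2 against WT, 9465 in ICM 3-4 against WT, 49 in siHMGB2 against WT, 34 in siSRRM2 against ICM 1-2, 0 in siBANF1 against ICM 1-2, 0 in siCTCF against ICM 3-4, 3738 in ICM 3-4 against ICM 1-2, 52 in siSRRM2 against siBANF1 in the reported fits. With no filter beyond 1 count, the genes called numbered 3883 in ICM 1-2 against WT, 854 in siHMGB2 against WT, 814 in siSRRM2 against ICM 1-2, 161 in siBANF1 against ICM 1-2, 1 in siCTCF against ICM 3-4, 1361 in siSRRM2 against siBANF1 and the members called numbered 2 in siSRRM2 against ICM 1-2, 4 in ICM 3-4 against ICM 1-2, 2 in siSRRM2 against siBANF1. With DESeq2, the genes called numbered 4010 in ICM 1-2 against WT, 556 in siHMGB2 against WT, 727 in siSRRM2 against ICM 1-2, 24 in siBANF1 against ICM 1-2, 1333 in siSRRM2 against siBANF1 and the members called numbered 2 in ICM 1-2 against WT, 2 in siSRRM2 against ICM 1-2, 3 in ICM 3-4 against ICM 1-2, 4 in siSRRM2 against siBANF1. With only the compared libraries fitted, the genes called numbered 0 in ICM 1-2 against WT, 1668 in siHMGB2 against WT, 0 in siSRRM2 against ICM 1-2, 136 in ICM 3-4 against ICM 1-2, 0 in siSRRM2 against siBANF1 and the members called numbered 1 in siHMGB2 against WT, 0 in ICM 3-4 against ICM 1-2. At an adjusted p under 0.01, the genes called numbered 710 in ICM 1-2 against WT, 0 in siHMGB2 against WT, 1 in siSRRM2 against ICM 1-2, 1167 in ICM 3-4 against ICM 1-2, 1 in siSRRM2 against siBANF1 and the members called numbered 0 in ICM 3-4 against ICM 1-2. With total count scaling, the genes called numbered 1 in siSRRM2 against ICM 1-2, 79 in siSRRM2 against siBANF1 and the members called numbered 2 in ICM 3-4 against ICM 1-2. With a mean of at least 1 CPM, the genes called numbered 54 in siSRRM2 against ICM 1-2, 163 in siSRRM2 against siBANF1 and the members called numbered 2 in ICM 3-4 against ICM 1-2. With RLE scaling, the members called numbered 2 in ICM 3-4 against ICM 1-2. In that comparison no filter beyond 1 count called 4930 of 33733 genes, and DESeq2 called 5454 of 19126. Total count scaling called 3509 of 19126 genes there, a mean of at least 1 CPM 3515 of 13123, and RLE scaling 3798 of 19126. With all 14 libraries fitted, the genes called numbered 5797 in ICM 3-4 against WT, 0 in siHMGB2 against WT and the members called numbered 3 in ICM 3-4 against WT. In ICM 1-2 against WT, fitting ICM 1-2, siSRRM2, siBANF1 and WT (chosen after seeing the data) called 998 genes. In siBANF1 against ICM 1-2, leaving out both replicate 1 libraries called 3 genes, and leaving out both replicate 2 libraries 820 genes and 1 member (also chosen after seeing the data). Both of those runs left a single library in each group, so their p-values took the spread from other groups. The cause of the shifts between settings was not tested.

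The labels number replicates alike across groups without calling them pairs. Deviations of same-numbered libraries correlated at 0.793 between ICM 1-2 and siBANF1, 0.409 between ICM 3-4 and siCTCF, and -0.072 to 0.043 in the other 4 pairs of groups. With the replicate number as a block, 1183 genes in ICM 1-2 against WT, 2443 genes in siHMGB2 against WT, 34 genes in siSRRM2 against ICM 1-2, 1 gene in siBANF1 against ICM 1-2, 4 genes in siCTCF against ICM 3-4, 61 genes in siSRRM2 against siBANF1 were called. These fits held only the compared libraries. In siHMGB2 against WT 3 members were called (BBC3, BCL2 and PMAIP1), of which PMAIP1 passed in those libraries without the block too. No member was called with the block elsewhere, and BAK1 in siCTCF against ICM 3-4 stood at -0.0053.

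Signs near 0 turned. BAK1 in siCTCF against ICM 3-4 was at -0.027 with RLE scaling and DESeq2, -0.0157 with total counts, -0.0248 without the filter, -0.0016 at a mean of at least 1 CPM, -0.0058 with the compared libraries and -0.0207 with all 14. MCL1 in ICM 3-4 against WT was at 0.11 with total counts, BMF in siBANF1 against ICM 1-2 at -0.0061 with the compared libraries, and BCL2L2 there at -0.032 without both replicate 1 libraries. The log2 ratio of survival to death genes, ICM 3-4 minus WT, was 0.27 without MCL1 and -0.84 without BAX. Leaving out each library in turn, ICM 1-2 against WT gave genes called 512 to 3483, members called 0 to 2, BBC3 -0.039 to 0.36, PMAIP1 -0.98 to 1.03, BCL2L11 -1.51 to 0.056, BMF -3.12 to 0.30. ICM 3-4 against WT gave BCL2L2 -0.011 to 0.41, MCL1 -0.23 to 0.001, BCL2L11 -0.23 to 0.58. siHMGB2 against WT gave genes called 0 in every case, BAX -0.26 to 0.098. siSRRM2 against ICM 1-2 gave genes called 1 to 51, BCL2L1 -0.72 to 0.18, MCL1 -0.43 to 0.35, BAK1 -0.24 to 1.22, PMAIP1 -1.14 to 0.88, BMF -2.67 to 0.75. siBANF1 against ICM 1-2 gave genes called 0 to 54, BCL2L1 -0.073 to 0.80, BCL2L2 -0.21 to 0.70, BAX -0.089 to 0.46, BAK1 -0.48 to 1.16, PMAIP1 -0.12 to 2.02, BCL2L11 -1.37 to 0.52, BMF -2.56 to 2.61. siCTCF against ICM 3-4 gave genes called 0 to 1, BCL2L2 -0.32 to 0.10, MCL1 -0.14 to 0.25, BAK1 -0.11 to 0.0502, BBC3 -0.12 to 0.038, PMAIP1 -0.17 to 0.40, BCL2L11 -0.29 to 0.53, BMF -0.68 to 0.37. ICM 3-4 against ICM 1-2 gave genes called 1090 to 5889, members called 0 to 6, MCL1 -0.12 to 0.66, BMF -2.99 to 0.43. siSRRM2 against siBANF1 gave genes called 1 to 1973, members called 0 to 2, BAK1 -0.44 to 0.80, BMF -2.70 to 0.73. Depth limits BCL2, with 19 to 141 counts a library.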
